A study of Mus musculus with 6 samples.

Results

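The nonsense-mediated decay factors described here are the 9 genes Upf1, Upf2, Upf3a, Upf3b, Smg1, Smg5, Smg6, Smg8 and Smg9, taken by gene symbol from a table of 19386 genes. All 9 were found, and all 9 were among the 12082 genes to which the authors gave an adjusted p-value. They were measured by RNA sequencing in bone marrow-derived macrophages, which are grown from marrow cells in medium conditioned by L929 cells. The mice were C57BL/6 and wild type. In 1 group they had been exposed to cigarette smoke and in the other to room air, with 3 libraries per group. Cells were harvested on day 11 of culture, after differentiation in both groups. The labels give neither the dose and length of the exposure nor which mouse each library came from, so p-values measure the spread between libraries, which may be technical in part.

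Nonsense-mediated decay is the pathway that destroys messenger RNAs on which translation ends too early, among them many transcripts with a retained intron or a frame-shifting splice. UPF1 is an RNA helicase at the centre of the pathway, and UPF2 and UPF3 proteins bridge it to the exon junction complexes that splicing leaves on the RNA. SMG1 is the kinase that phosphorylates UPF1, and SMG8 and SMG9 bind and regulate SMG1. Phosphorylated UPF1 recruits SMG6, an endonuclease that cuts the RNA, and SMG5, an adaptor that leads to decay from the ends. Several messenger RNAs of these factors are themselves subject to the pathway, a feedback known from other cells.

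Smg1 fell after smoke exposure and was the single factor called, while the other 8 did not pass the threshold. In the authors' deposited table its mean was 1132 normalized counts (read counts divided by a size factor per library) in room air and 804 in cigarette smoke. On the log2 scale this was a deposited change of -0.49 (SE 0.13), or 0.713-fold, with an adjusted p of 0.00929 from the authors' DESeq2 fit. The deposited changes are labelled MAP (maximum a posteriori), in DESeq2 an estimate shrunk towards 0. For Smg1 the log2 ratio of the group means was also -0.49. That fit took in 24 libraries, of which 18 are not analysed here. The factors called were thus 1 of 9 lower and 0 of 9 higher, where 3.53% of all genes tested were called lower and 4.15% higher (7.69% in either direction). Because the table holds group means and no value per library, whether the libraries of the groups overlap for Smg1 could not be seen. In RNA from whole cultures, fewer cells of a type and less RNA per cell cannot be told apart.

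**Figure D1:**
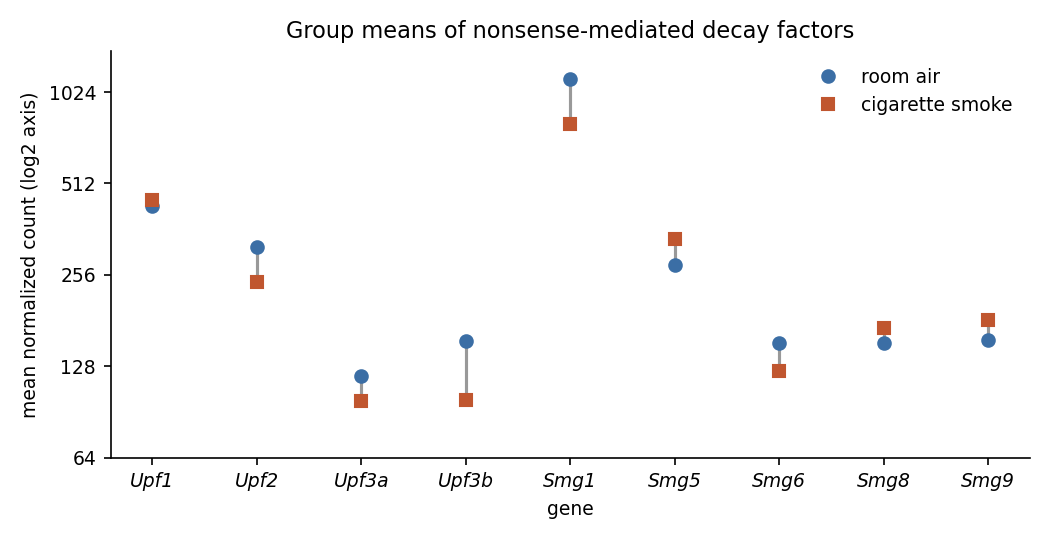
Mean normalized count of each factor (vertical axis, log2 scale) in room air (circles) and cigarette smoke (squares), the authors' means over 3 libraries each with no error given per group. Smg1 has the highest mean in both groups and drops from 1132 to 804, and Upf1 lies at nearly the same level in both, 431 and 452.

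Smg1 (ENSMUSG00000030655.15, GRCm38 chromosome 7, 118131308 to 118243670, minus strand) is by far the longest of these genes in transcript. Its longest annotated transcript (GENCODE M21) has 15557 nucleotides in 63 exons, a coding sequence of 10974 and a 3′ untranslated region of 4233 nucleotides. Among 12071 genes with transcript properties, 36 (0.298%) have a longer one. Its GC content is 44.9%, against a median of 49.4% over all genes tested. By unadjusted p it stood at rank 351 of 12082, and 1040 genes had a larger fall. Another gene, Gm45084, annotated as still to be verified by experiment, overlaps it on the same strand, and reads of the overlap cannot be told apart.

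The fold change of Smg1 was close to the value fitted over all genes for its transcript length and GC content. Over all genes, log2 fold changes were lower for longer and for more AT-rich transcripts. A smooth trend in both properties gave -0.39 on the log2 scale for a transcript like that of Smg1, which left -0.10 (SE 0.13) and an adjusted p of 0.890 (normal test on the deposited standard errors, Benjamini-Hochberg over all genes). What the trend comes from was not tested. The uncertainty of the trend itself is not part of this test, and 36 of 12071 genes have a longer transcript than Smg1. With this trend taken out, 0 of the 9 factors passed an adjusted p of 0.05, where 1.29% of all genes did. The lowest adjusted p among the factors was then 0.236, for Upf3b, and 1 of 9 (11.1%) had an unadjusted p under 0.05, beside 11.2% of all genes in that setting.

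**Figure D2:**
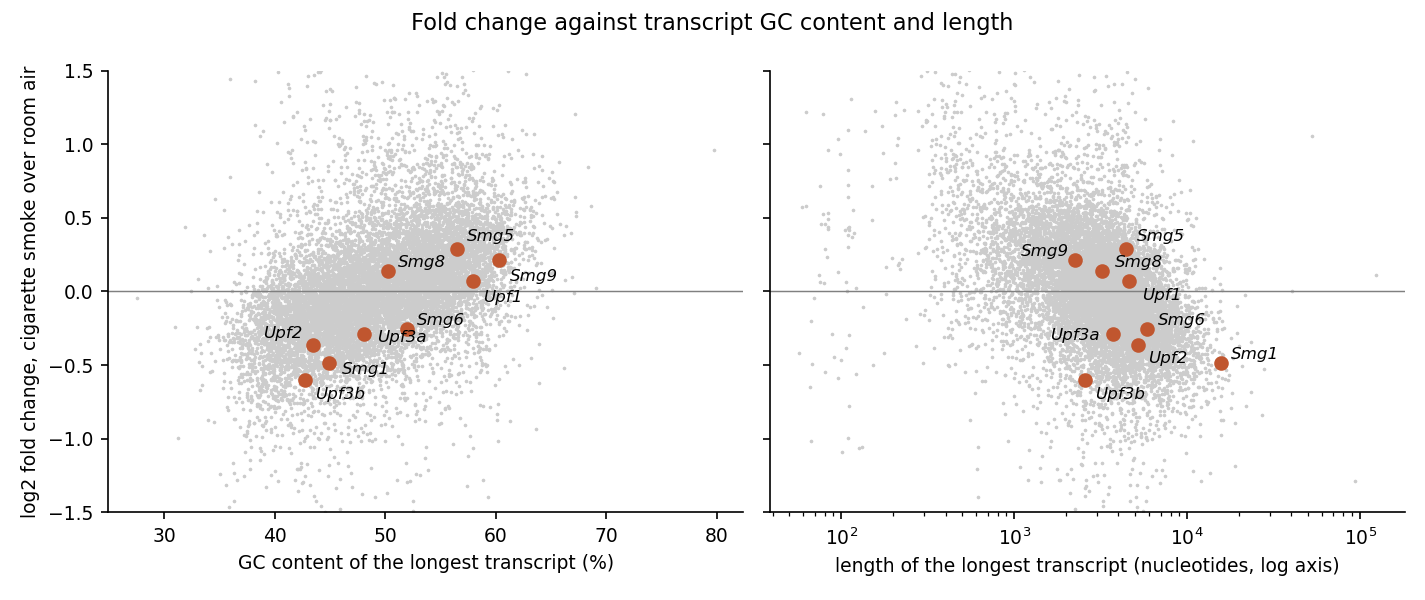
Log2 change of smoke over room air, from the authors' deposited table, against GC content (left) and length (right, log axis) of the longest annotated transcript, with the 9 factors as labelled points and all other genes in grey. Genes beyond the vertical axis are not drawn. Smg1, at 15557 nucleotides, lies far to the right, and the 4 factors with values above 0 have a GC content of 50.2% or more.

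The genes of the bridge to the exon junction complex had fold changes below 0. Upf2 (ENSMUSG00000043241.14, chromosome 2, 5951469 to 6056703, plus strand), the adaptor between UPF1 and UPF3, had means of 317 and 243 normalized counts in room air and smoke. The authors' deposited table gives a log2 change of -0.36 (SE 0.14, adjusted p 0.0828 in DESeq2), of which the trend by transcript length and GC gave -0.22. Upf3b (ENSMUSG00000036572.16, chromosome X, 37091678 to 37110322, minus strand), the X-linked UPF3 paralog, showed the lowest value of the 9. Its means were 156 and 99.3 normalized counts, and the authors' deposited table gives -0.60 on the log2 scale (SE 0.22, adjusted p 0.0602 in DESeq2). The trend gave -0.07 for Upf3b, and -0.53 remained, so that its value after removal was lower than that of Smg1. Whether the 2 genes differ was not tested.

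Upf3a (ENSMUSG00000038398.8, chromosome 8, 13785615 to 13799193, plus strand), the autosomal paralog of Upf3b, had means of 119 and 98.6 normalized counts. The authors' deposited table lists -0.29 as its log2 change (SE 0.14, DESeq2 adjusted p 0.186). The 95% Wald intervals of both paralogs, -0.56 to -0.02 for Upf3a and -1.02 to -0.18 for Upf3b, overlap, and their difference was not tested. These intervals rest on the deposited standard errors alone and carry no adjustment for the number of genes.

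Upf1 showed the smallest difference. The gene of the helicase (ENSMUSG00000058301.8, chromosome 8, 70331525 to 70353278, minus strand) had means of 431 and 452 normalized counts and, in the authors' deposited table, a log2 change of 0.07 (SE 0.12, DESeq2 adjusted p 0.793). Its interval of -0.16 to 0.30 as deposited leaves out the deposited value of Smg1. Once the trend was removed its value was -0.052 with an interval of -0.28 to 0.18, which takes in the value of Smg1 after removal, and its direction is not set.

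Of the kinase complex, the genes of both partners of SMG1 had values above 0. Smg8 (ENSMUSG00000020495.13, chromosome 11, 87077732 to 87086774, minus strand) had means of 153 and 171 normalized counts, and the authors' deposited table sets the log2 change at 0.14 (SE 0.12, DESeq2 adjusted p 0.535). Smg9 (ENSMUSG00000002210.11, chromosome 7, 24399619 to 24422778, plus strand) had means of 156 and 182 and in the authors' deposited table a log2 change of 0.21 (SE 0.13, DESeq2 adjusted p 0.355). Smg9 has the highest GC content of the 9 (60.3%) and the shortest longest transcript (2242 nucleotides), for which the trend gave 0.33, and its value turned to -0.12 with the trend removed. The intervals of Smg8 (-0.09 to 0.37) and of Smg1 (-0.75 to -0.23) as deposited do not overlap. With the trend removed they were -0.13 to 0.33 and -0.36 to 0.17 and did overlap. A test of the difference between genes needs the libraries and was not run.

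The effectors that act on phosphorylated UPF1 had values on opposite sides of 0, and neither passed the threshold. Smg5 (ENSMUSG00000001415.10, chromosome 3, 88336260 to 88362338, plus strand) had means of 276 and 335 normalized counts, the highest fold change of the 9. On the log2 scale it was 0.29 in the authors' deposited table (SE 0.12, DESeq2 adjusted p 0.1003). Smg6 (ENSMUSG00000038290.15, chromosome 11, 74925823 to 75164448, plus strand) had means of 152 and 124 and, in the authors' deposited table, -0.25 on the log2 scale (SE 0.16, DESeq2 adjusted p 0.346). The locus of Smg6 holds 6 annotated genes on the opposite strand. The libraries were directional, but whether strand was used in counting is not given in the sources used here.

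**Figure D3:**
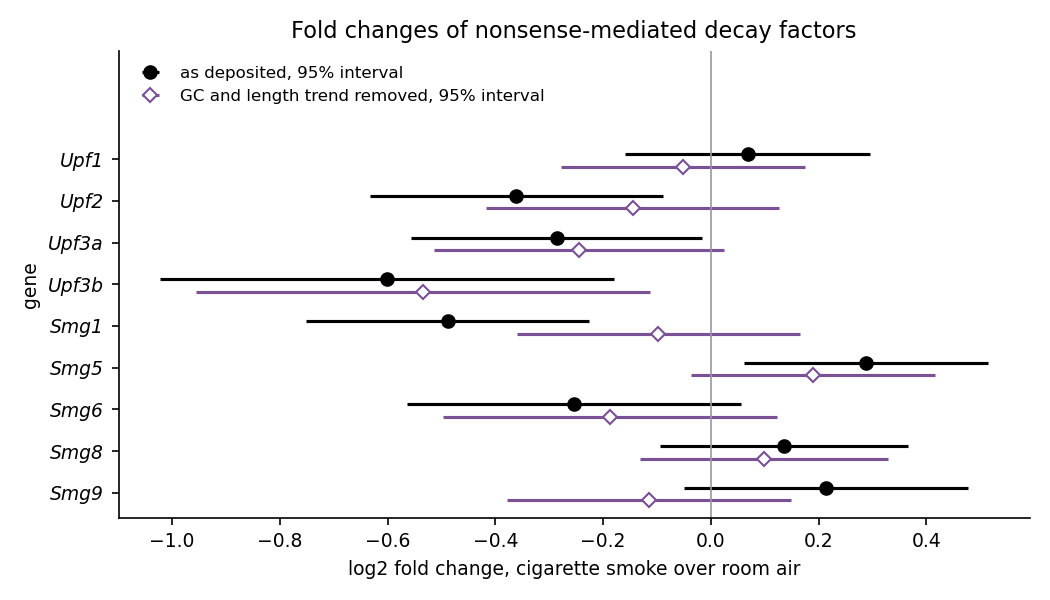
Log2 fold change of each factor (cigarette smoke over room air) as deposited (filled circles) and after removal of the trend by length and GC (open diamonds). Bars are 95% Wald intervals from the deposited standard errors. Smg1 moves from -0.49 to -0.10, whereas Upf3b stays near its deposited value, at -0.53.

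Taken as a list, 5 factors had values below 0 and 4 above, with a median of -0.25 on the log2 scale and a range from -0.60 to 0.29, where the median over all genes tested was 0.00 (-0.00285). At an unadjusted p under 0.05 there were 5 factors (Smg1, Upf2, Upf3a and Upf3b lower, Smg5 higher), beside 22.8% of all genes. At an adjusted p under 0.1 there were 3 (Smg1, Upf3b and Upf2, all lower), beside 12.8% of all genes. The trend by length and GC was below 0 for 5 of them (Smg1, Upf2, Upf3a, Upf3b and Smg6), the same 5 that had fold changes below 0. For Upf3a it was -0.04, taken at a retained-intron transcript of 3698 nucleotides, beside 2057 for the coding one. At the coding transcript it was not computed, so the sign for Upf3a may depend on the transcript used. After removal of the trend 7 of 9 lay below 0, beside 52.6% of all genes. The median was -0.12, beside -0.01 over all genes.

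Compared per length, Upf1 had the highest level. In normalized counts per kilobase of the longest transcript, the room air levels were 93.3 for Upf1, 72.8 for Smg1, 69.8 for Smg9, 62.0 for Smg5, 61.3 for Upf2, 60.9 for Upf3b, 47.6 for Smg8, 32.1 for Upf3a and 26.0 for Smg6. Smg1, first by total count, was thus second to Upf1 per length. In smoke the levels per kilobase were 97.8 for Upf1, 81.2 for Smg9, 75.4 for Smg5, 53.0 for Smg8, 51.7 for Smg1, 47.0 for Upf2, 38.9 for Upf3b, 26.7 for Upf3a and 21.2 for Smg6. No spread per library stands behind these levels, so which neighbours in the order differ is not known. For Upf3a the longest transcript is annotated as a retained-intron transcript (3698 nucleotides, beside 2057 for the coding one), and with the union of all exons as length its room air level was 20.3 per kilobase. That length also moved Smg9 to 42.3, Smg5 to 39.6, Upf3b to 38.9 and Smg1 to 47.2 per kilobase in room air. The order below Upf1 thus depends on the length used.

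The other genes of the pathway were described from 5 lists of 45 genes in all, each gene found in the table and tested. Of the 45, 2 were called higher and 1 lower in the authors' deposited table, near the shares over all genes (4.15% and 3.53%), and 22 had values above 0 and 23 below. Of 6 other decay factors and regulators (Dhx34, Nbas, Ruvbl1, Ruvbl2, Pnrc2 and Ppp2ca) none was called in DESeq2, 1 (Ruvbl2, above 0) had an unadjusted p under 0.05, beside 22.8% of all genes, and the median was 0.11. Among 11 genes of the exon junction complex and cap-binding proteins 1 was called higher, beside 4.15% of all genes, and none lower. The median was 0.06, and -0.0091 with the trend by length and GC taken out. That gene was Rnps1, a splicing protein that joins the exon junction complex. The authors' deposited table has means of 281 and 389 normalized counts for it and a log2 change of 0.46 (SE 0.13, DESeq2 adjusted p 0.0123). The 5 genes of this list with an unadjusted p under 0.05 (Rnps1, Eif4a3, Pym1, Ncbp1 and Sap18) all had values above 0 as deposited, where 12.0% of all genes had such a p and a value above 0. With the trend by length and GC taken out there were 4 of 11, beside 11.2% of all genes, with Rnps1, Ncbp1 and Sap18 above 0 and Acin1 below, so this shared direction did not hold.

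Of 15 genes of bulk mRNA decay, 1 was called lower, beside 3.53% of all genes, and none higher. Values below 0 were listed for 13 of them, beside 50.4% of all genes, and the median was -0.17. These genes have long transcripts (median 5541 nucleotides), and with the trend by length and GC taken out 9 of 15 lay below 0, beside 52.6% of all genes, with a median of -0.066 and no call. An unadjusted p under 0.05 was found for 5 of 15 as deposited, all below 0, beside 22.8% of all genes, and for 1 of 15 after removal of the trend, beside 11.2%. The gene called was Xrn1, the exonuclease that degrades decapped RNA from its 5′ end. The authors' deposited table has means of 477 and 344 normalized counts for Xrn1 and a log2 change of -0.46 (SE 0.14, DESeq2 adjusted p 0.0193). Xrn1 has a longest transcript of 10256 nucleotides with 41.9% GC. None of the 4 translation termination genes (Etf1, Gspt1, Gspt2 and Pabpc1) was called in DESeq2 and 0 had an unadjusted p under 0.05, with a median of 0.11. After removal of the trend 2 of 4 (Etf1 and Gspt1, both above 0) had an unadjusted p under 0.05, beside 11.2% of all genes, with a median of 0.19 and no call.

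Of 9 transcripts known as targets of nonsense-mediated decay, 1 was called higher, beside 4.15% of all genes, and none lower. Their median was 0.18, and 0.057 once the trend was removed, with 4 of 9 then below 0. Atf4, a stress-response transcription factor whose messenger RNA carries upstream open reading frames, rose. The authors' deposited table gives it 662 normalized counts in room air and 891 in smoke, a log2 change of 0.42 (SE 0.13, DESeq2 adjusted p 0.0248). Gas5, a snoRNA host transcript often used as a readout of the pathway, stood at -0.17 (SE 0.20) on the same scale in the authors' deposited table. Gadd45b, a stress gene whose RNA is a target of the pathway, stood at 0.49 (SE 0.30) there, with an adjusted p of 0.343. Most of these targets also respond to other signals. With the trend by length and GC taken out, Rnps1 stood at 0.32 (p 0.0147, adjusted p 0.256), Xrn1 at -0.07 (adjusted p 0.935) and Atf4 at 0.17 (adjusted p 0.712). The single call among the 45 was then Sap18, a protein of the exon junction complex periphery, 0.44 above its trend. Its adjusted p was 0.0316 (normal test), in a setting where 1.29% of all genes were called. The trend was taken at the longest annotated transcript, 5125 nucleotides for Sap18 (trend -0.20) and 2106 nucleotides in 1 exon for Rnps1. At other transcripts of these genes it was not computed. As listed in the authors' deposited table, Sap18 stood at 0.24 with an adjusted p of 0.217.

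**Figure D4:**
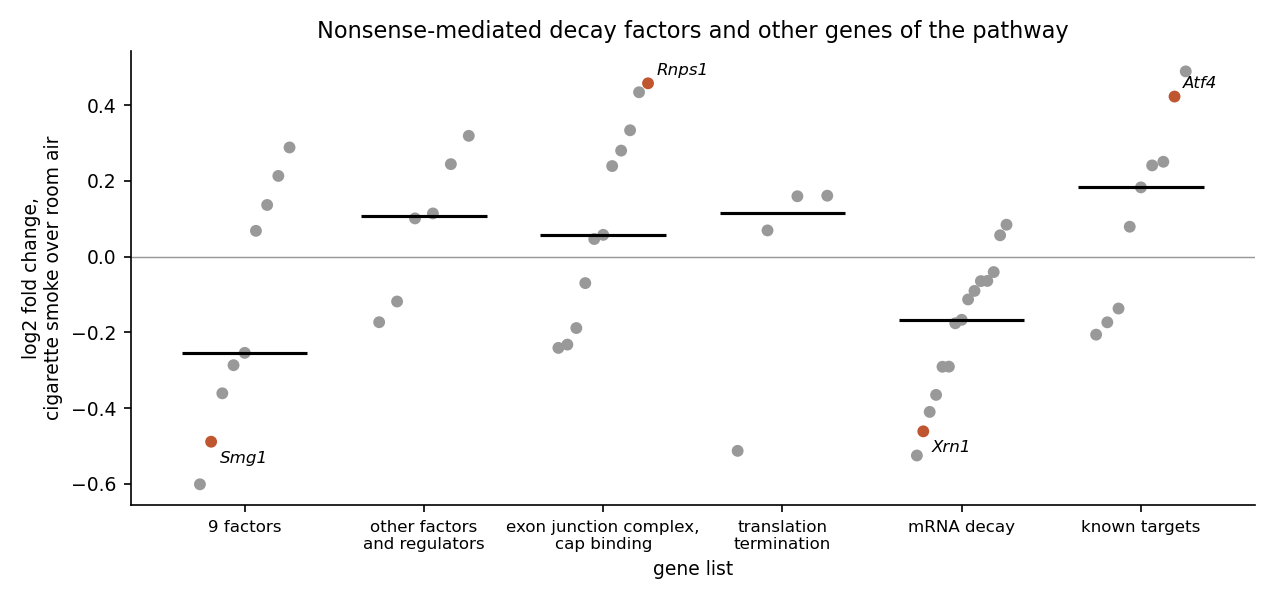
Log2 change of smoke over room air (vertical axis, the authors' deposited table) of the 9 factors and of the 45 other pathway genes by list, 1 point per gene sorted by value, with the median as a line. Coloured points passed an adjusted p of 0.05. They are Smg1 and Xrn1 below 0 and Rnps1 and Atf4 above.

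Splicing of the factors was scored by JuncBASE, which gives for each event the percentage of junction reads that include the alternative sequence. Of 10376 events, 5 lie within these genes: 2 in Upf3a, 2 in Smg9 and 1 in Smg5. Smoke replicate 1 stood apart, with no value for 4169 of the 10376 events, against at most 398 in any other library. Without it, 0 of the 5 events passed an adjusted p of 0.05 in limma, as did 0 of all events, and 1 (a donor of Upf3a) had an unadjusted p under 0.05, beside 9.13% of all events. No event was listed in the other 6 factors, although the authors' assembled annotation holds 13 transcripts at Smg1 and 3 to 6 at each of the others. The sequences below are exons of Smg9 and Smg5 at which these events take place (GRCm38, GENCODE M21 transcripts, coding strand). They are shown because the length of the alternative stretch decides whether the reading frame is kept. In the exon of Smg5 the capitals mark the 4 last bases, which a shifted splice donor would leave to the intron, an intron that would then begin with GT.
Smg9 exon 6, chr7:24407521-24407633, plus strand: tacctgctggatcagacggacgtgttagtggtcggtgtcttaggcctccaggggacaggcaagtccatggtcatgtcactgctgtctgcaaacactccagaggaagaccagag
Smg5 exon 9, chr3:88349376-88349444, plus strand: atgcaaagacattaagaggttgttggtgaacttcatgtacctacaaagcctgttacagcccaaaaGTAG

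Exon 6 of Smg9 is wholly coding and has 113 bases, which leaves a rest of 2 when divided by 3, so a transcript without it is out of frame. Room air replicate 1 included it at 92.9% and the other room air libraries at 100%, as did smoke replicates 2 and 3, with no value in smoke replicate 1. Skipping was thus seen in 1 room air library. The groups overlap, and the difference in log2 odds of inclusion was 1.04 (SE 1.11, limma, adjusted p 0.666). Without room air replicate 1, the library with skipping, the difference was 0.

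JuncBASE also scored retention of the intron after this exon, which is annotated (chromosome 7, 24407634 to 24414938, 7305 bases). In room air, replicates 1, 2 and 3 retained it at 5%, 6.25% and 0%, against 0% in each smoke library, and room air replicate 3 shares the value of the smoke libraries. The difference was -3.75 percentage points, with the lowest p of the 5 events (limma, p 0.0635, adjusted p 0.476). In log2 odds it was -1.87, and it ran from -2.80 without room air replicate 3 (limma, p 0.000607, adjusted p 0.126) to -1.33 without room air replicate 2 (limma, p 0.205). In the fit without room air replicate 3, 10.0% of all events had an unadjusted p under 0.05. A level of 0% with unknown read depth does not show that the intron is never retained.

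In Smg5 the annotated donor of exon 9 was used in 100% of reads in all 3 room air libraries and in smoke replicates 1 and 3. In smoke replicate 2 it was used in 80%, the other reads coming from the donor 4 bases upstream, which shifts the frame by 1 base. The shifted donor, which is not in the annotation, was seen in 1 of 6 libraries, and the difference of -1.57 log2 odds (SE 1.29) had an adjusted p of 0.623 in limma. Without that library the difference was 0.

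In Upf3a both events lie in the last intron of the coding transcript (chromosome 8, 13796593 to 13798176). An acceptor ending an intron at 13797804 had a usage of 0%, 8.82% and 0% in the room air replicates (in order 1, 2, 3) and of 0%, 0% and 2.7% in the smoke replicates. A donor starting an intron at 13797920 was used at 0%, 0% and 3.03% in room air and at 0%, 7.69% and 7.69% in smoke. Neither site is in the annotation. They bound a stretch of 115 bases (13797805 to 13797919), and neither GENCODE M21 nor the authors' assembled annotation has it as an exon. Whether both sites are joined in the same molecules is not shown by these levels. The groups overlap at both sites, with differences in log2 odds of -0.50 (SE 1.10, adjusted p 0.845) for the acceptor and 1.47 (SE 1.08, adjusted p 0.585) for the donor in limma. Without smoke replicate 1, which stood apart, the donor difference was 2.55 (SE 0.78, p 0.0267, adjusted p 0.498 in limma). It was 0.93 without smoke replicate 2 or 3. At the acceptor the difference was -0.18 (SE 1.38) without smoke replicate 1, and it turned to 0.64 without room air replicate 2.

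None of the 5 events thus passed an adjusted p of 0.05 in limma, where 0% of all 10376 events did, and none had an unadjusted p under 0.05, where 10.8% did. The authors' deposited p-values for the same 5 events were 0.245 or higher, with corrected values of 0.804 or higher.

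**Figure D5:**
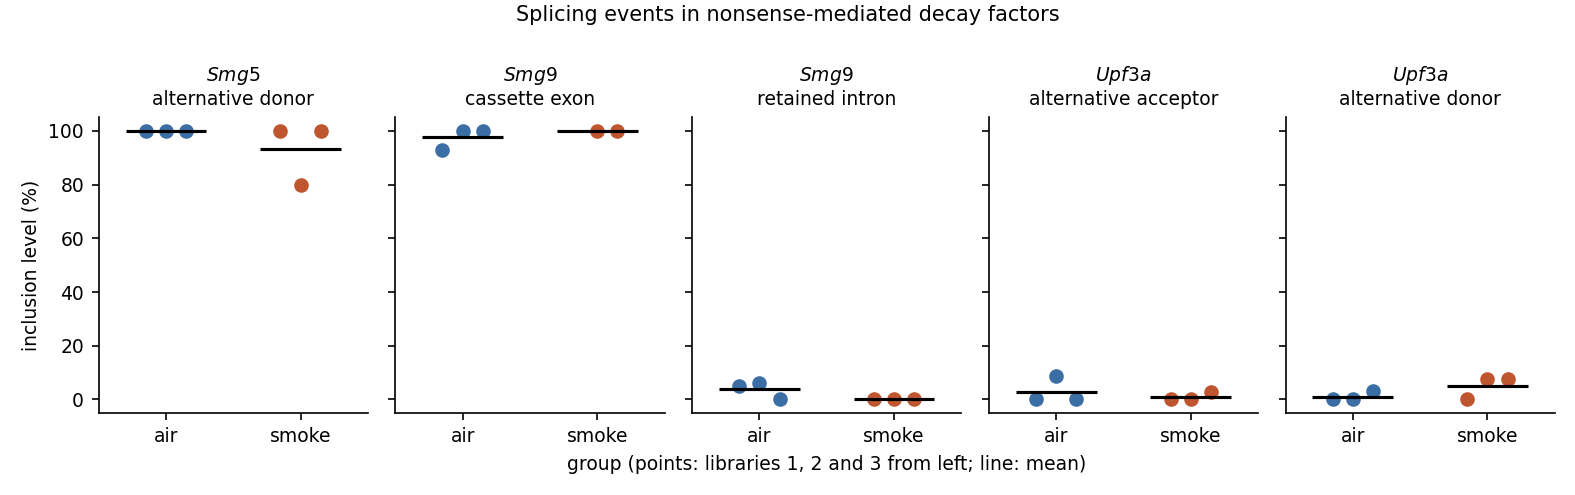
Inclusion level in percent (vertical axis) of the 5 JuncBASE events in Smg5, Smg9 and Upf3a, 1 point per library in room air (left) and cigarette smoke (right), with the group mean as a line. Smoke replicate 1 has no value for the cassette exon of Smg9. The points of both groups overlap in all 5 panels.

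The authors' deposited rMATS comparison of retained introns, which counts junction and intron reads, held 1 intron of these genes. It is the annotated intron of Smg5 on chromosome 3 (88351582 to 88352962, 1381 bases). Its level differed by 5.3 percentage points between the 2 sample sets of that table, with a false discovery rate of 0.271, so 0 of 1 passed 0.05, where 14.5% of all introns did. The table does not say which group is set 1, from which set 2 is subtracted. Of 485 introns also scored by JuncBASE, 90.1% had a sign opposite to that of smoke minus room air.

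The cultures showed the markers of their labelled cell type. All 8 macrophage markers were present at 401 to 23168 normalized counts in room air and 348 to 24772 in smoke, and none was called different. Of 20 markers of neutrophils, B, T, erythroid, stromal and dendritic cells, 13 were not listed. The stromal sum was 18.5 in room air and 3.85 in smoke, and those of the other types were at most 1.02 in either group.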

How the data were processed

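RNA was extracted with TRIzol and made into directional libraries, per the labels' protocols. Mapping to mm10 with STAR, SAMtools 1.9 and bedtools 2.27.1 is named in the submitters' processing notes, whose roles and order are not given; the counting program, its filters and its use of strand are not given in the sources used here. The authors deposited DESeq2 results: group means of normalized counts (a signal with no value per library, so depth is unknown), log2 fold changes with standard errors, a test score and p-values, fitted over 24 libraries, 6 of them described here. Deposited JuncBASE values are percent inclusion per library, and their read depth is unknown, so no interval for counting error can be given. A deposited rMATS table gives differences in inclusion level and p-values, and its 6 columns of values per sample were not used. A transcript assembly served only for counts of transcripts per gene and to look for the Upf3a stretch among its exons.

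Expression calls are those of the authors' table at an adjusted p under 0.05, and 95% Wald intervals were computed from its MAP estimates and standard errors. Inclusion was tested in limma 3.58.1 (R 4.3.3) on the log2 odds with 1 percentage point added to each side, over events with at least 2 values in each group, (with a library left out, 1 remaining value was enough, and its spread was assumed to be that of the other group), and p-values were adjusted over all events by the Benjamini-Hochberg method. The trend was a weighted natural spline, with 4 degrees of freedom each in GC content and in log2 length of the longest GENCODE M21 transcript (GRCm38, the assembly of mm10), known for 99.91% of genes tested. The fits were checked on simulated data. Named were all 9 factors, the pathway genes past the threshold, and per factor any event with groups that did not overlap, otherwise that of lowest p. The other events and the genes Ruvbl1, Ruvbl2, Dhx34, Nbas, Pnrc2, Ppp2ca, Eif4a3, Pym1, Ncbp1, Sap18, Acin1, Gas5, Gadd45b and those of translation termination were named after their values were seen. The factors and all lists were chosen with earlier results of these data known. Besides the genes of the lists, 1 gene chosen for them was left out and is not reported here. Alternatives covered the adjustment, the trend, the threshold, the log odds scale, each library left out, a replicate block and the transcript length.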

Additional observations from a re-analysis of the deposited data

How the results depend on the processing

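The number of factors called, 1, was also 1 with p-values adjusted over all genes with a p-value and 1 with the median fold change subtracted, an alternative chosen after seeing the data. It was 0 with the trend in GC content and length removed and 3 at an adjusted p under 0.1. With the trend removed, Upf1 turned to -0.052 and Smg9 to -0.12 on the log2 scale, and 156 genes were called over the whole table in place of 929. The pathway genes called went from 3 to 1 with the trend removed, a different gene (Sap18), and to 6 at an adjusted p under 0.1, where 1.29% and 12.8% of all genes were called. The ratio of the highest to the lowest level per kilobase in room air was 3.58, and 5.18 with the union of exons as length. No event of the factors was called under any alternative, and leaving out each library in turn gave 0 to 0. Without cigarette smoke replicate 3, 1131 events were called over the whole table in place of 0, 429 of them on a single smoke value; 4358 of the 10376 events had no more than 1 value in a group there. The difference at the Upf3a acceptor ran from -1.14 to 0.64 in log2 odds as each library was left out, and was 0.64 without room air replicate 2, its single room air library above 0. With a replicate block 0 events of the factors were called, the lowest adjusted p in limma being 0.609, and the difference of the Smg9 cassette exon was 0. Whether the numbers pair the libraries is not settled. Same-numbered libraries had correlations of 0.02, -0.04 and -0.09 over 5933 events, and differently numbered ones of -0.07 to 0.13. These were taken after centring within each group, which ties the correlations of 3 libraries to one another. The block changed no call, but the main fit had no call that it could remove. The rMATS intron was not called with a minimum of 10 percentage points either. The group means limit what can be said of expression, since no library can be left out.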

Other observations

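Values were missing unequally in the JuncBASE table that holds the events of the factors. Of 10376 events, room air replicates 1, 2 and 3 lacked 398, 7 and 1 values, and cigarette smoke replicates 1, 2 and 3 lacked 4169, 189 and 50. The missing value of the Smg9 cassette exon is in cigarette smoke replicate 1, the library with the most missing values. With events restricted to those with all 6 values, 4 of the 5 events of the factors remained, and none of the 4 was called in limma at an adjusted p under 0.05, where 23 of all 5933 such events (0.388%) were.

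Across 12071 genes, the deposited log2 changes had a Spearman correlation of 0.483 with transcript GC and of -0.448 with transcript length. Genes share libraries and sequence properties and are not independent replicates, so these are descriptions.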
